A study of Homo sapiens with 9 samples.

Results

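The inducible HSP70 genes HSPA1A, HSPA1B and HSPA6, their co-chaperone BAG3, the HSP90 co-chaperone CHORDC1 and the calcyclin-binding protein gene CACYBP were followed over 9 arrays of human EA.hy926 cells. Members were chosen by gene symbol, with earlier results of these data known. Every probe set that carries one of the 6 symbols was taken. This gave 14 of 53617 probe sets and 6 of 14884 named genes: 5 probe sets each for HSPA1A and HSPA1B and 1 for each of the others. All 14 probe sets, and so all 6 genes, were at or above a log2 value of 5 on at least 3 arrays and entered the tests with 12155 genes in all.

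EA.hy926 is an established line made by fusing umbilical vein endothelial cells with the lung carcinoma line A549. The 3 groups, with 3 arrays each, were unexposed cells, cells given 5 nm silver nanoparticles and cells given 100 nm silver nanoparticles, both for 6 h at a dose near the LD50, per the labels. The sources used here do not give the doses in mass. They also do not say whether replicates were separate cultures, and p-values then reflect the spread among these 9 samples alone, which may be technical. Values are log2 intensities, so a difference of 1 is a doubling. The 5 nm and 100 nm groups are both compared with the same 3 control arrays.

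Arrays that share a replicate number were paired by their values, as described with the processing, and a control array and its exposed arrays of 1 number are called a set here. Set 2 stood apart: 143 genes were lower by 1 log2 or more with 5 nm particles there, against 1 in set 1 and 2 in set 3, and 201 were higher, against 63 and 43. Results are therefore also given over sets 1 and 3 alone, an alternative chosen after the data were seen. In the unexposed cells all 8 endothelial markers with a named probe set (among them PECAM1 and TIE1) reached log2 5 on every array, a low bar, since array medians were 5.15 to 5.64. So did 7 of 9 epithelial markers, among them KRT18 and KRT7, and 2 of 3 leukocyte markers, CD68 and LYZ, while ESRP1 stayed below log2 5, so this check does not set the endothelial label apart. The log2 of the summed endothelial marker intensities was 13.21 to 13.57 in unexposed cells, 12.91 to 13.42 with 5 nm particles and 13.14 to 13.55 with 100 nm particles. For the epithelial list the ranges were 11.09 to 12.001, 10.87 to 11.89 and 11.01 to 12.04. The part of these lists in the results was not tested. In bulk RNA, more cells that express a gene and more RNA per cell cannot be told apart.

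HSP70 chaperones bind unfolded stretches of other proteins and let them go in cycles driven by ATP, with J-domain proteins starting the cycle and nucleotide exchange factors such as BAG3 ending it. When unfolded protein builds up in the cytosol, the transcription factor HSF1 assembles into trimers, enters the nucleus and binds heat shock elements, which are inverted repeats of the unit GAA and its complement TTC. HSPA1A, HSPA1B, HSPA6 and BAG3 are well known targets of HSF1, and heavy metals are classic inducers of this response.

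Matches to the heat shock element in the annotated promoters are shown because HSF1 binds such elements. They are letter matches, and binding was not measured here. Windows from 250 bases before to 50 bases after an annotated start of transcription, from RefSeq (GRCh38.p14), were found for all 6 genes, with 1 window each and 2 for CACYBP. They were searched for runs of units in alternation with 2 bases between neighbours, which are the steps GAANNTTC and TTCNNGAA. Both steps read the same on either strand, and in a longer run they overlap. Positions count from the start, -1 being the base before it. The stretches below run 5′ to 3′ on the gene's own strand, and capitals mark the units of the longest run. HSPA1A is at chr6:31815407-31815474 (plus strand), HSPA1B at chr6:31827603-31827670 (plus), HSPA6 at chr1:161524436-161524508 (plus) and CHORDC1 at chr11:90223057-90223139 (minus).
HSPA1A: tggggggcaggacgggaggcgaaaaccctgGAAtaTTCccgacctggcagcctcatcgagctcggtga
HSPA1B: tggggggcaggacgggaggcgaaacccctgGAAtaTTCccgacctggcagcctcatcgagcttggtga
HSPA6: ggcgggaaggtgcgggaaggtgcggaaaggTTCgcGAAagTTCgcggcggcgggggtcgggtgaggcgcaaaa
CHORDC1: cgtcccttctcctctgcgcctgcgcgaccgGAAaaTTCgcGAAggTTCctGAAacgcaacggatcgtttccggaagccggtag
The HSPA1A and HSPA1B runs had 2 units each, at -106 to -99 and at -105 to -98. The HSPA6 run had 3, at -74 to -62, and the CHORDC1 run had 5, at -60 to -38. HSPA6 had a further run of 2 units at -180 to -173, and CHORDC1 had runs of 2 at -205 to -198 and at -23 to -16.

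For BAG3, no units stood in this spacing anywhere in the window, so its 250 bases before the start, chr10:119651130-119651379 (plus strand), are shown with the single units in capitals, to set beside the runs of the other genes.
BAG3: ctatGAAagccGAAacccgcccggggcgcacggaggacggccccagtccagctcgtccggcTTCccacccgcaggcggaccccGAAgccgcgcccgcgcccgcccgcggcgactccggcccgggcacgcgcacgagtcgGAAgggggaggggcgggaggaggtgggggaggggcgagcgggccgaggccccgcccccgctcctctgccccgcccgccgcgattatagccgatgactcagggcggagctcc
The CACYBP windows likewise held single units and no run. An absent run says only that these letters in this spacing are not in this window. A run of 2 or more was found in 13.5% of all 35116 promoter windows, a run of 3 or more in 0.490%, of 4 or more in 0.0342% and of 5 or more in 0.0114%. Counted by exact letters, the HSPA1A and HSPA1B runs are thus of a common length, and CHORDC1 is among 4 windows with 5 or more units. Units with altered letters or wider gaps were not searched, so an imperfect element is counted short or missed. A further single GAA lies upstream of the run at -116 to -114 in HSPA1A and at -115 to -113 in HSPA1B.

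**Figure D1:**
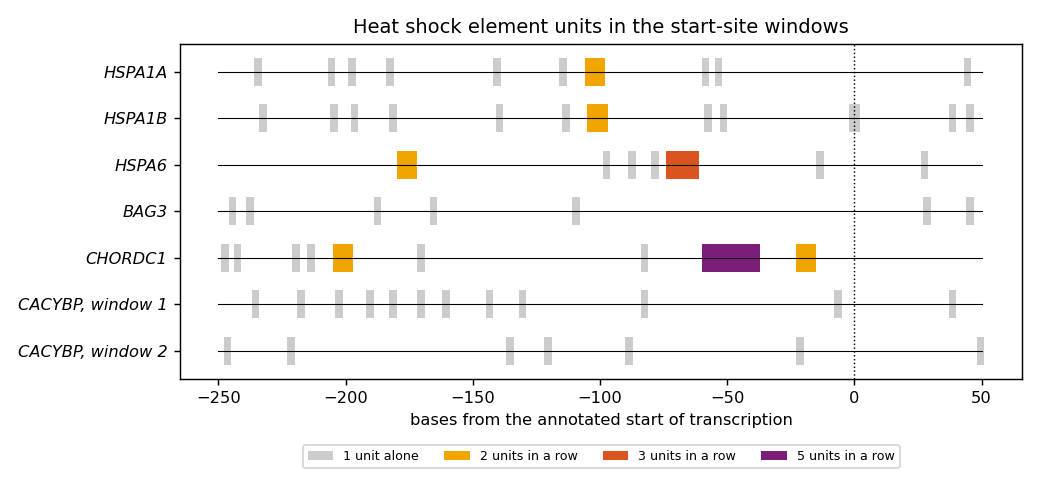
Units of the heat shock element in the annotated start-site windows of the 6 genes, by distance in bases from the start (dotted line). Grey blocks are single units and coloured blocks are runs of alternating units; the longest run lies in CHORDC1 with 5 units, and BAG3 and CACYBP have single units only.

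HSPA1A and HSPA1B, the main stress-inducible cytosolic HSP70 genes, were already bright in unexposed cells and were higher on every 5 nm array. HSPA1A read 11.92, 11.73 and 11.29 in unexposed replicates 1, 2 and 3, then 13.61, 13.51 and 13.08 with 5 nm particles and 11.99, 11.82 and 11.23 with 100 nm particles. The lowest 5 nm value lay 1.16 above the highest unexposed value, while the 100 nm values lay among the unexposed ones. Group means were 11.65 ± 0.32, 13.40 ± 0.28 and 11.68 ± 0.40 (SD, n = 3 each). Within sets the 5 nm difference was 1.69, 1.78 and 1.79, a mean of 1.75 or 3.37-fold, with an SD between sets of 0.057. In this probe set the largest set was 1.06 times the smallest, and over all 5 HSPA1A probe sets that ratio was 1.06 to 1.17 (SD between sets 0.057 to 0.163).

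The limma fit without the replicate number gave HSPA1A a 95% interval of 1.15 to 2.36 and an adjusted p of 0.0603, short of the threshold of 0.05 (Benjamini-Hochberg). With the replicate number as a block, the interval was 1.62 to 1.88 and HSPA1A rose (adjusted p = 0.00271). Over 20 alternatives its adjusted p in limma ranged from 0.00271 to 1, the latter with sets 1 and 3 alone, where the difference was 1.74, and 4 of the 20 called it. A block fitted to just the compared groups, with fewer residual degrees of freedom, did not (adjusted p = 0.168). Most of the 20 alternatives, here and for the other genes, fit no block and so ignore the pairing of the arrays. With the block kept and 1 array left out at a time, HSPA1A lost the call only without the unexposed array of replicate 3 (adjusted p = 0.0579).

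HSPA1B encodes almost the same protein from a neighbouring copy. It read 11.66, 11.30 and 10.79 in unexposed cells, 13.53, 13.63 and 12.77 with 5 nm particles and 11.73, 11.42 and 10.77 with 100 nm particles. Again the 5 nm range lay wholly above the unexposed range, by 1.12, and the 100 nm range overlapped it. Means were 11.25 ± 0.43, 13.31 ± 0.47 and 11.30 ± 0.49 (SD, n = 3 each). The 5 nm difference was 1.87, 2.33 and 1.98 in sets 1, 2 and 3, a mean of 2.06 or 4.17-fold (SD between sets 0.24).

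HSPA1B missed the threshold in limma when no block was used (95% interval 1.32 to 2.80, adjusted p = 0.0739) and rose with it (1.79 to 2.33, adjusted p = 0.0173). Its adjusted p ranged from 0.0101 to 1 over 20 alternatives, of which 5 called it and the block on just the compared groups did not (adjusted p = 0.415). Without the 5 nm array of replicate 3 it passed in limma with no block as well (adjusted p = 0.04995). With the block, HSPA1B kept its call without any one of the 5 nm arrays and lost it without any one of the unexposed or 100 nm arrays (adjusted p = 0.0637 to 0.141). With sets 1 and 3 alone its difference was 1.92.

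**Figure D2:**
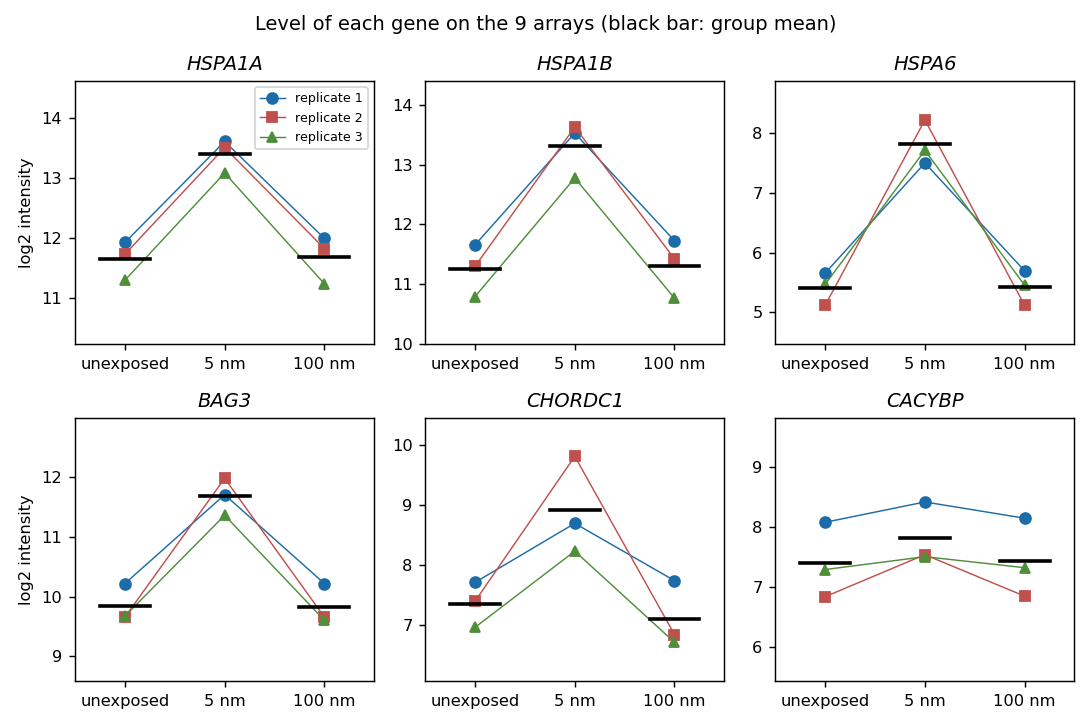
Level of each gene as log2 intensity on each of the 9 arrays, by group, with points joined within a replicate number and black bars for group means (n = 3). The 5 nm points lie above all unexposed points for every gene except CACYBP, and the 100 nm points lie among or near the unexposed points.

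All 10 probe sets of HSPA1A and HSPA1B were higher on each 5 nm array than on the unexposed array of its set. Of the 5 that carry HSPA1A, 3 held identical values on all arrays, so they add no separate measurement. The 5 that carry HSPA1B all differed from each other. The mean 5 nm difference was 1.75 to 1.92 over the HSPA1A probe sets and 1.83 to 2.30 over those of HSPA1B. Their mean 100 nm differences were 0.034 to 0.040 and 0.027 to 0.055. The annotated windows of the pair matched at 277 of 299 aligned bases (92.6%), the starts lie 12195 bases apart, and how far a probe set reads one copy, the other or both was not tested. The values are therefore given by the symbol each probe set carries.

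When each named probe set was tested by itself (13092 in all), 1 of the 10 passed in limma without the block. It is an HSPA1B probe set whose unexposed values were 11.17, 10.59 and 10.38 and whose 5 nm values were 13.23, 13.25 and 12.57, a difference of 2.30 (adjusted p = 0.0283). With the block all 10 passed (adjusted p = 0.0025 to 0.0232). The brightest probe set on any array read 14.08 to 14.32. The 5 nm values of HSPA1A lay 0.71, 0.71 and 1.04 below their array's highest, and those of HSPA1B 0.80, 0.59 and 1.35 below. Whether closeness to the top of the scale lowers these differences was not tested.

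**Figure D3:**
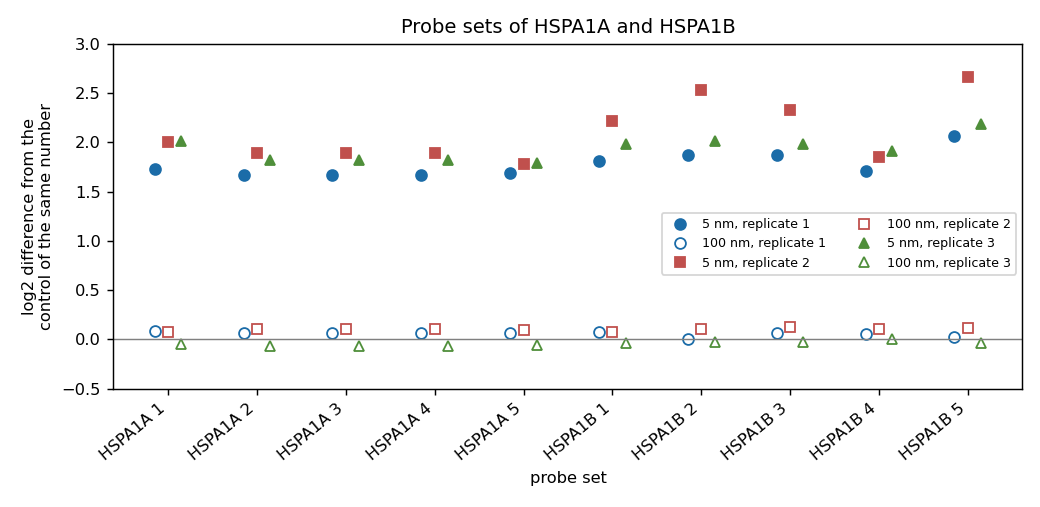
Difference from the unexposed array of the same replicate number, on the log2 scale, for the 5 probe sets of HSPA1A and the 5 of HSPA1B. Filled points are 5 nm and open points 100 nm; all 5 nm points lie between 1.67 and 2.66 and all 100 nm points between -0.06 and 0.12.

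HSPA6, also called HSP70B′, is a strictly stress-inducible HSP70 and is found in human but not in mouse. It rose with 5 nm particles by 2.39 on the log2 scale (5.25-fold). Its unexposed values of 5.66, 5.12 and 5.47 lay just above the floor of 5, and the 100 nm values of 5.69, 5.12 and 5.45 were nearly the same numbers. With 5 nm particles it read 7.50, 8.22 and 7.71, and the gap to the highest unexposed value was 1.84, the widest among the 6 genes. Means were 5.41 ± 0.27, 7.81 ± 0.37 and 5.42 ± 0.29 (SD, n = 3 each) for unexposed, 5 nm and 100 nm cells. On the unexposed arrays 48.2% to 50.8% of all probe sets lay above HSPA6, so its unexposed level was near the array median and is not shown to be above background. How far that bears on the size of the fold was not tested.

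Within sets the HSPA6 difference was 1.84, 3.10 and 2.24. In limma without the block the 95% interval was 1.81 to 2.97 and the adjusted p was 0.00555. The call ended with the replicate block (1.62 to 3.16, adjusted p = 0.0671), with a block fitted to just the compared groups (adjusted p = 0.548) and with sets 1 and 3 alone (2.04, adjusted p = 0.626). With the block kept and 1 array left out at a time, HSPA6 passed only without the 5 nm array of replicate 2 (adjusted p = 0.0212). Its adjusted p ranged from 0.0022 to 0.626 over 20 alternatives, of which 17 kept the call. Most of these 20 fit no block, so the count does not speak for the paired fits. HSPA7, a near copy of HSPA6 named outside the rule for genes because it may share probes with it, read 5.04, 4.46 and 4.79 in unexposed cells and 5.41, 6.12 and 5.31 with 5 nm particles. The HSPA7 difference of 0.85 did not pass without the block (adjusted p = 1 in limma) or with it (adjusted p = 0.306).

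BAG3 is a nucleotide exchange factor for HSP70 that also hands clients to selective autophagy together with HSPB8 and SQSTM1. It rose with 5 nm particles by 1.83 (3.56-fold). BAG3 read 10.22, 9.66 and 9.68 in unexposed cells, 11.71, 11.98 and 11.36 with 5 nm particles and 10.22, 9.66 and 9.61 with 100 nm particles. The 5 nm range lay above the unexposed range by 1.14, whereas in replicates 1 and 2 the 100 nm and unexposed values were exactly equal. Means were 9.85 ± 0.32, 11.68 ± 0.31 and 9.83 ± 0.34 (SD, n = 3 each), and the differences within sets were 1.49, 2.32 and 1.69.

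The call for BAG3 was near the threshold. In limma without the block its 95% interval was 1.24 to 2.42 and its adjusted p 0.0453, and with the replicate block the adjusted p was 0.0514 (1.32 to 2.34). Over 20 alternatives it ranged from 0.00743 to 1, and 8 of them kept the call. BAG3 lost the call without the unexposed array of replicate 2 (adjusted p = 0.325) or 3 (0.223), without the 5 nm array of replicate 1 (0.146) or 2 (0.241), and without the 100 nm array of replicate 2 (0.0863) or 3 (0.0736), all in limma. Its difference was 1.68 to 1.83 in those fits, and it was 1.59 with sets 1 and 3 alone. With the block kept and 1 array left out at a time, BAG3 passed only without the 5 nm array of replicate 2 (adjusted p = 0.0134).

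CHORDC1, also called morgana, is a zinc-binding co-chaperone of HSP90 that also binds the kinases ROCK1 and ROCK2. It read 7.71, 7.40 and 6.96 in unexposed cells, 8.70, 9.82 and 8.23 with 5 nm particles and 7.74, 6.84 and 6.71 with 100 nm particles. The 5 nm range lay above the unexposed range by 0.52, but the 5 nm arrays were far apart from each other, with replicate 2 the highest. The difference within sets was 0.99, 2.42 and 1.27, a mean of 1.56 (2.95-fold). It missed the threshold in limma with no block (95% interval 0.64 to 2.48, adjusted p = 0.745) or with it (0.45 to 2.67, adjusted p = 0.223), nor under any of 20 alternatives. With sets 1 and 3 alone it was 1.13.

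CACYBP, a calcyclin-binding protein that links the ubiquitin ligase SIAH1 to SKP1, had the smallest difference of the 6. It read 8.08, 6.83 and 7.29 in unexposed cells, 8.42, 7.54 and 7.50 with 5 nm particles and 8.15, 6.84 and 7.32 with 100 nm particles. The 3 groups overlapped, and the spread between replicate numbers was larger than that between groups. Within sets the 5 nm array was higher by 0.34, 0.70 and 0.21. The mean of 0.42 (1.34-fold) missed the threshold in limma with no block (95% interval -0.50 to 1.33, adjusted p = 1) or with it (0.11 to 0.73, adjusted p = 0.24). Single arrays moved it: it was 0.76 without the unexposed array of replicate 1, 0.14 without that of replicate 2 and 0.12 without the 5 nm array of replicate 1. With sets 1 and 3 alone it was 0.28.

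Counted over the 6 genes, 2 passed in limma without the block, HSPA6 and BAG3, where 0.074% of all genes tested were called higher (9 genes). With the replicate block 2 passed again, now HSPA1A and HSPA1B, where 0.296% of all genes were called higher (36 genes). The 5 nm range lay wholly above the unexposed range for 5 of 6 genes, all but CACYBP, against 1.41% of all genes. The difference was 1 log2 or more in all 3 sets for HSPA1A, HSPA1B, HSPA6 and BAG3, 4 of 6 genes against 0.222% of all genes, and CHORDC1 came just under it with 0.99 in set 1. All 6 were positive in all 3 sets, against 8.03% of all genes. Over all genes 47.0% of the 5 nm set differences were exactly 0, and a gene with such a value cannot count as positive in all 3 sets. The 6 genes were chosen with earlier results of these data known, so these shares are a description and not a test. The median difference of the 6 was 1.79, and that of all genes tested was 0.

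**Figure D4:**
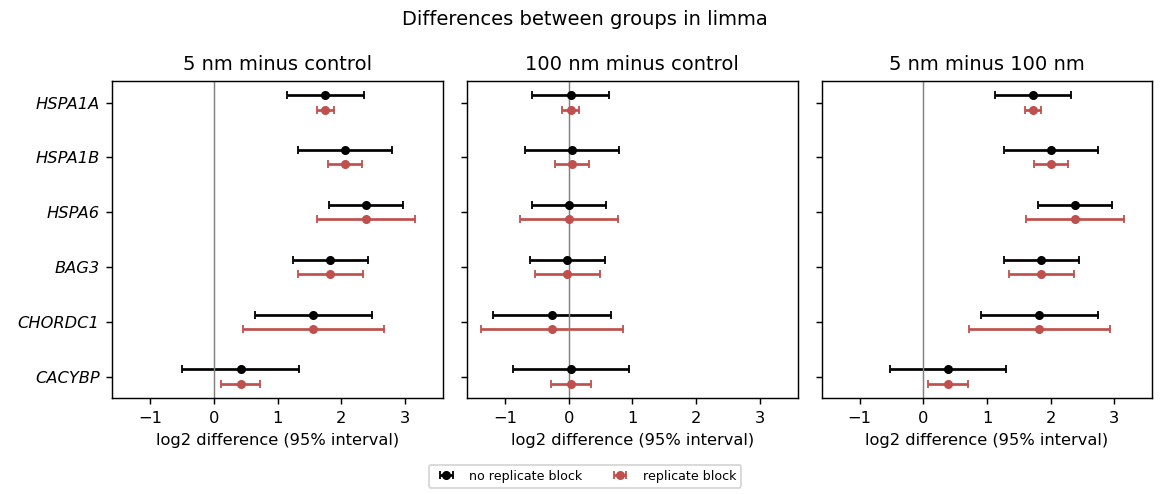
Difference between groups on the log2 scale with its 95% interval for each gene and comparison, in limma without the replicate number (black) and with it as a block (red). The estimates are equal in both fits; the block narrows the interval for HSPA1A from 1.15 to 2.36 down to 1.62 to 1.88 and widens it for HSPA6.

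The order of the mean differences was HSPA6 (2.39), HSPA1B (2.06), BAG3 (1.83), HSPA1A (1.75), CHORDC1 (1.56) and CACYBP (0.42). In this order the 95% intervals of neighbours overlap throughout. Ranked by mean 5 nm difference among the 12155 genes, HSPA6 was 9th, HSPA1B 13th, BAG3 18th, HSPA1A 20th, CHORDC1 29th and CACYBP 350th. The unexposed level of HSPA6 was near the array median and is not shown to be above background. How far that bears on its place in both orders was not tested. The genes differed in how even they were over the sets: the largest set difference was 1.06 times the smallest for HSPA1A, 1.25 for HSPA1B, 1.56 for BAG3, 1.68 for HSPA6, 2.45 for CHORDC1 and 3.27 for CACYBP. These ratios, the order and the ranks are for the probe set that stands for each gene. The mean difference was 1.75 to 1.92 over the HSPA1A probe sets and 1.825 to 2.30 over those of HSPA1B, against 1.830 for BAG3. The places of HSPA1A and HSPA1B beside BAG3 therefore depend on the probe set. The largest difference was in set 2, the set in which more genes differed in both directions, for HSPA6, BAG3, CHORDC1, CACYBP, 4 of 5 HSPA1B probe sets and 3 of 5 HSPA1A probe sets (3 with identical values), and in set 3 for the other HSPA1A and HSPA1B probe sets. With sets 1 and 3 alone, 0 of the 6 passed in limma without the block (0 of all genes, and 70 at an unadjusted p under 0.05) and 0 with it (38 of all genes).

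With 100 nm particles none of the 6 passed, and 0% of all genes tested were called with or without the block. At an unadjusted p under 0.05 there were 0 genes without the block and 33 with it. HSPA1A differed from unexposed cells by 0.03 (95% interval -0.57 to 0.64 in limma without the block and -0.10 to 0.16 with it) and HSPA1B by 0.06 (-0.69 to 0.80, and -0.22 to 0.33 with it). HSPA6 differed by 0.01 (-0.57 to 0.59), BAG3 by -0.02 (-0.61 to 0.56) and CACYBP by 0.04 (-0.88 to 0.95). CHORDC1 had the widest gap, -0.26 (-1.18 to 0.66), made of 0.03, -0.56 and -0.25 in sets 1, 2 and 3. With the block, the upper bounds for HSPA1A, HSPA1B, HSPA6 and BAG3 (0.16, 0.33, 0.78 and 0.49) lay below each gene's lowest 5 nm difference within a set. The same held for CHORDC1 (0.85, against 0.99) but not for CACYBP (0.35, against 0.21). The median difference of the 6 was 0.02.

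No gene of the 6 had its 100 nm range wholly above its unexposed range, against 0.00823% of all genes (1 gene). Exactly equal values in the 100 nm and unexposed array of a set made up 3 of the 18 set differences of the 6 genes, 2 for BAG3 and 1 for HSPA6, against 61.4% over all genes tested. At 5 nm none of the 18 was exactly 0, against 47.0% over all genes. Such exact zeros can come from summarising a few arrays at a time, so a small real difference may be hidden in them.

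Compared directly, the 5 nm arrays were above the 100 nm arrays by 2.38 for HSPA6 (95% interval 1.81 to 2.96, adjusted p = 0.00523 in limma) and by 1.85 for BAG3 (1.27 to 2.44, adjusted p = 0.0454). These 2 of 6 genes passed without the block, where 0.0658% of all genes were called higher (8 genes). With the block HSPA1A (1.72, adjusted p = 0.00292) and HSPA1B (2.0, adjusted p = 0.0194) passed, where 0.288% of all genes were called higher. HSPA6 (adjusted p = 0.0685) and BAG3 (0.0538) then did not, in limma with the replicate block, while HSPA1A (0.0656) and HSPA1B (0.0927) did not without it. CHORDC1 (1.82, adjusted p = 0.426 in limma) and CACYBP (0.38, adjusted p = 1) passed in neither fit. The 5 nm range lay above the 100 nm range for 5 of 6 genes, against 1.37% of all genes. Over 20 alternatives the adjusted p ran from 0.00227 to 0.79 for HSPA6, 0.0068 to 1 for BAG3, 0.00292 to 1 for HSPA1A and 0.0115 to 1 for HSPA1B. The arrays whose removal changed the calls of BAG3 and HSPA1B were the same as for 5 nm minus control: BAG3 then reached adjusted p = 0.0891 to 0.301 in limma, and HSPA1B passed without the 5 nm array of replicate 3 (adjusted p = 0.046). Both particle doses were near the LD50, but the sources used here do not give the mass of silver, so size and mass cannot be told apart.

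Other genes of the chaperone machinery had smaller differences in the median. From 8 lists of related genes, which hold 72 symbols other than the 6, 36 had a named probe set and 34 were tested. With 5 nm particles 24 of the 34 had positive and 7 negative differences, 12 were positive in all 3 sets, and the median was 0.08 against 1.79 for the 6 genes and 0 for all genes. Over all genes tested, 35.9% were positive, 45.1% negative and 8.03% positive in all 3 sets. Exactly equal values, 47.0% of the 5 nm set differences over all genes, keep a gene out of the last share. None of the 34 passed in limma without the block, against the 0.074% of all genes called higher, and 1 passed with it, against 0.296%. With 100 nm particles 0 passed in either fit. All 11 J-domain proteins, among them DNAJB1, and the abundant chaperones HSPA8, HSP90AA1 and HSP90AB1 were not analysed here.

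Among 6 other HSP70 genes 5 were positive, with a median of 0.10. The one list gene that passed with the replicate block was HSPA9, the mitochondrial HSP70 mortalin (0.48; 0.43, 0.60 and 0.41 in sets 1, 2 and 3; adjusted p = 0.0468, and 1 without the block). HSPA1L, a close relative of HSPA1A expressed mainly in testis, had the largest difference, 1.23 (0.65, 2.08 and 0.96; adjusted p = 0.745 in limma, 0.259 with the block), and HSPA12B the lowest, -0.17. How far HSPA1L probes also read HSPA1A or HSPA1B was not tested.

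Of 8 nucleotide exchange factors and co-chaperones of HSP70, 6 were positive, with a median of 0.26 and 0 passing in either fit. HSPH1, the HSP110 exchange factor, differed by 1.31 (1.05, 1.67 and 1.21 in sets 1, 2 and 3; adjusted p = 0.542 in limma and 0.0514 with the block), and BAG4, a relative of BAG3, by -0.10. Of 8 tested genes from the list of HSP90 and its co-chaperones 6 were positive, with a median of 0.13. The HSP90 genes HSP90AA1 and HSP90AB1 were not among them. The largest difference there was 0.61 for PPID, a cyclophilin (adjusted p = 1 in limma and 0.083 with the block), and the lowest -0.14 for FKBP5, an immunophilin.

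Of 3 tested partners of BAG3, 2 were positive, with a median of 0.24. SQSTM1, the autophagy receptor p62, differed by 0.57 (0.57, 0.76 and 0.37 in the sets; adjusted p = 1 in limma and 0.0973 with the block), and SYNPO, which binds BAG3 in muscle and neurons, by -0.07. The small heat shock proteins HSPB1 and HSPB8 differed by 0.25 and 0.24. Among 4 partners of CHORDC1 and CACYBP, the median was 0.05, with SKP1, a ubiquitin ligase subunit, at 0.15 and S100A6, which is calcyclin itself, at -0.05. HSF1 differed by -0.04 and HSF2BP by 0.01, and the median of 4 heat shock factors and regulators was 0.003. None of the genes named here passed in either fit. HSF1 is known to be controlled at the protein level, which arrays do not read.

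**Figure D5:**
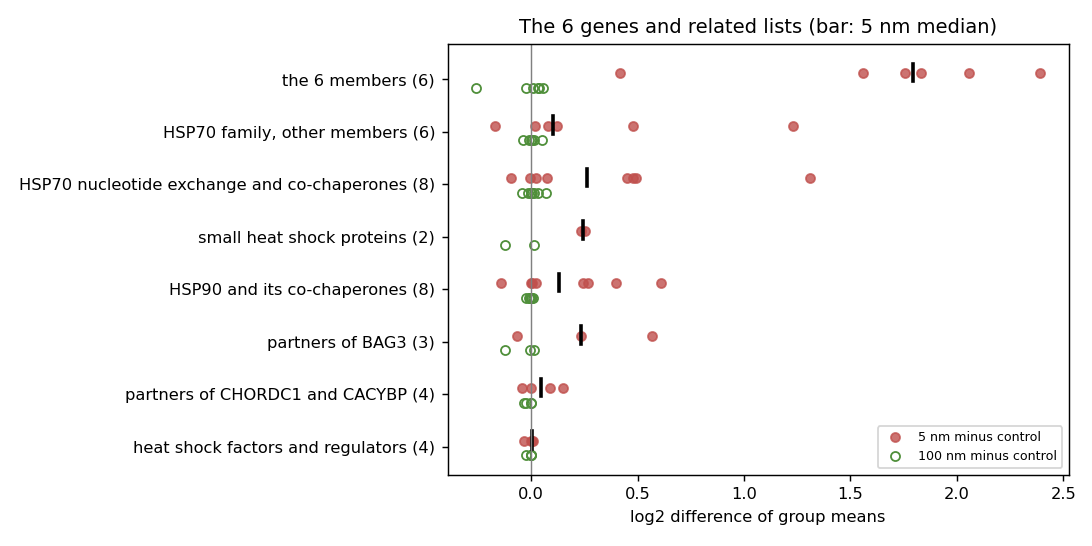
Difference of group means on the log2 scale for the 6 genes and for the tested genes of 7 related lists (number tested in brackets). Filled points are 5 nm minus control with a black bar at their median, open points 100 nm minus control; the median is 1.79 for the 6 genes and between 0.003 and 0.26 for the lists.

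Genes whose pattern was most like each of the 6 were taken, leaving out the 6 themselves, as the nearest by Euclidean distance over 6 within-set differences, 3 for each particle size, as a description of these arrays. BAG3 had NRARP, a Notch-regulated ankyrin repeat gene (distance 0.41), MT1E, a metallothionein (0.42), and INSIG1, a brake on sterol synthesis (0.52). HSPA1A had NRARP (0.65), MT1E (0.69) and KRTAP2-3, a keratin-associated protein (0.86). HSPA1B had MT1E (0.57), KDM6B, a histone demethylase (0.73), and TMEM88 (0.77). HSPA6 had SPMIP1 (0.68), KDM6B (0.77) and SESN2, a stress-induced inhibitor of mTORC1 signalling (0.996). CHORDC1 had MIR154 (0.63), INSIG1 (0.65) and HSPA1L (0.73).

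MT1E, which binds metal ions, was among the 3 nearest outside the 6 for HSPA1A, HSPA1B and BAG3, with set differences of 1.76, 2.35 and 1.44. CACYBP stood apart from the other 5 but close to genes outside the 6. Its nearest genes were MARK3 (0.10), RNF216 (0.11) and KDM5A (0.12), whereas the other 5 were at distances of 2.21 to 3.48. By the probe set that stands for each gene, the closest pair among the 6 was HSPA1B with BAG3 (0.51). HSPA1A with BAG3 (0.60) and HSPA1A with HSPA1B (0.61) followed. By these probe sets BAG3 was thus nearer to HSPA1A and to HSPA1B than the genes named above for them. The mean 5 nm difference ran from 1.83 to 2.30 over the HSPA1B probe sets. The lowest of them had set differences of 1.71, 1.85 and 1.91, against 1.69, 1.78 and 1.79 for HSPA1A and 1.49, 2.32 and 1.69 for BAG3. In each set, at 5 nm and at 100 nm, this HSPA1B probe set lay nearer to HSPA1A than to BAG3. The order of these pairs therefore depends on the probe set. Distances for the other probe sets were not computed.

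The printed elements were set beside the differences over all tested genes that have a promoter window. Counted by exact letters, the number of units in a run did not order the 6 genes. HSPA6 with 3 units had 2.39, and HSPA1A and HSPA1B with 2 had 1.75 and 2.06. BAG3 with none in the window had 1.83, CHORDC1 with 5 units 1.56 and CACYBP with none 0.42. Imperfect units were not counted. Of 52 tested genes with a run of 3 or more, 50 were none of the 6. Their median difference was 0.007 and the range was -0.19 to 0.70. Of the 50, 27 were positive (34.6% of all other tested genes with a window were), and 0 passed in limma with or without the block. Over the 9172 tested genes with a window other than the 6, limma called 5 higher without the block and 29 with it. Of those 9172, 1250 had a run of 2 or more, and these held 3 of the 5 calls and 6 of the 29. With so few calls in all, 0 of 50 cannot set runs of 3 or more apart from other genes. A link between runs and calls was not tested. Other than CHORDC1, 5 tested genes had a run of 4 or more, here named for their windows with values already seen: HSPD1, the mitochondrial chaperonin (0.34), PAPPA2 (0.51), TMEM95 (0.22), COMMD1 (-0.10) and LOC93429 (-0.01). Of the 59 list genes with a window, 5 had a run of 3 or more (HSPA8, HSP90AA1, HSP90AB1, DNAJA1 and DNAJB6), and these were not analysed here. A match is a description of the sequence and does not show binding.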

How the data were processed

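Expression in the 3 groups of 3 samples was read on 9 Affymetrix whole-transcript arrays from 300 ng of total RNA each, per the labels' protocols. The deposited values are log2 intensities per probe set, which the authors made with RMA. The submitters' processing notes name RMA and Affymetrix Expression Console 1.3.1, and no build is given in the sources used here. Of 53617 probe sets, 16098 had 1 gene symbol, updated through the Entrez identifier (16098 matched). The probe set with the highest mean stood for a gene, and genes at log2 5 or more on at least 3 arrays were tested (12155).

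Group means were compared on all 9 arrays with limma 3.58.1 in R 4.3.3 (lmFit, eBayes), with Benjamini-Hochberg adjustment over all genes and a threshold of 0.05. The script was tested on simulated data. The number of arrays limits the precision.

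Between arrays of the same replicate number, 46.9% to 57.6% of values were exactly equal, against at most 0.00373% otherwise. RMA run on 3 arrays at a time leaves this pattern, and the notes do not mention it. Deviations from group means correlated at r = 0.697 to 0.842 for the same number (9 pairs) and -0.520 to -0.234 for different numbers (18 pairs). Deviations within a group sum to 0, so the negative values follow from the positive ones and are no separate support. The numbers therefore pair the arrays by their equal values and positive correlations, and a fit that adds the number as a block is given where it changes a call. How far summarising 3 arrays at a time made this pairing, or changed the spread within sets and so the p-values with the block, was not tested.

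The members, gene lists and tests were chosen with earlier results of these data known. Named genes were the 6 members, from each list the members past the threshold or else the largest difference each way, and the 3 nearest genes to each member. Promoter windows were RefSeq's (GRCh38.p14). Alternatives are listed with the sensitivity of the results.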

Additional observations from a re-analysis of the deposited data

How the results depend on the processing

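Of the 6 genes, 2 passed for 5 nm minus control without the block, and the count was 2 with the replicate block, 0 with the replicate block on only the groups compared, 1 with only the groups compared, 1 with no floor, 4 with a floor of 6, 1 with arrays median-centred, 4 with quantile normalization across arrays, 4 with a variance trend and 0 with only replicates 1 and 3. For 5 nm minus 100 nm the counts were the same except for 3 with the variance trend. With 1 array left out the count ranged from 1 to 3 in both comparisons, and with the block kept from 0 to 4 for 5 nm minus control and from 1 to 4 for 5 nm minus 100 nm. Over all genes the 9 calls became 79 with the replicate block, 0 with the replicate block on only the groups compared, 15 with a floor of 6, 4 median-centred, 19 quantile-normalized and 0 with only replicates 1 and 3, and 6 to 15 with 1 array left out. For 5 nm minus 100 nm the 8 calls became 75, 0, 15, 4, 17 and 0 in the same order, and 6 to 19. The counts of 15 and 19 came without the 5 nm array of replicate 3. All 9 calls without the block were higher with 5 nm particles. Of the 79 with the block, 36 were higher and 43 lower, and of the 75 for 5 nm minus 100 nm 35 were higher and 40 lower. For 5 nm minus control with the block, removing an unexposed array left 0 to 6 higher genes (0 for replicate 3). Removing a 100 nm array left 5 or 6, and removing a 5 nm array gave 51, 153 and 178 for replicates 1, 2 and 3. Beyond the fewer samples or genes in some settings, the cause was not tested.

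No 5 nm difference of the 6 genes changed sign under any alternative. The 100 nm differences, none of which passed, changed sign with 1 array left out for 5 genes, over -0.14 to 0.26 for HSPA1A, -0.17 to 0.32 for HSPA1B, -0.14 to 0.16 for HSPA6, -0.22 to 0.16 for BAG3 and -0.32 to 0.38 for CACYBP. The block moved no call at 100 nm.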
